A study of Mus musculus with 9 samples.

Results

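The BCL2 family decides whether a stressed cell releases cytochrome c from its mitochondria, and 10 of its genes are described here in mouse bone marrow macrophages given the drugs WGFT17 or JHU083, or neither. The genes were found by symbol among the 28998 genes of the deposited table: the survival genes Bcl2, Bcl2l1 and Mcl1, the pore-forming effectors Bax and Bak1, and the BH3-only death signals Bcl2l11, Bbc3, Pmaip1, Bid and Bad. All 10 had a mean of at least 1 FPKM (fragments scaled to transcript length and library depth), which 11798 genes reached, so each was tested.

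Survival proteins of the family, called guardians here, hold the effectors and the BH3-only proteins in an inactive grip on the outer mitochondrial membrane. BH3-only proteins are made or activated under stress, such as loss of growth factors, DNA damage, endoplasmic reticulum stress or death receptor signals, and they occupy the guardians or switch on the effectors. Freed BAX and BAK then assemble pores, cytochrome c leaks out, and the apoptosome activates the caspases. Macrophages are known to lean on MCL1 and on BCL2A1, another guardian, for survival, and much of the control over the family acts on the proteins, which mRNA levels do not show.

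The cells were grown from bone marrow monocytes of wild-type C57 mice with GM-CSF, a growth factor for myeloid cells, for 7 days, and exposure to WGFT17 or JHU083 followed for 36 h. WGFT17, JHU083 and Control had 3 libraries each. WGFT17 is a code name, and JHU083 is known as a prodrug of the glutamine antagonist DON. Doses, the treatment of the Control cells and their time in culture after day 7 are not stated in the labels, so dose and compound cannot be told apart between WGFT17 and JHU083, and neither can culture time and drug in the comparisons with Control, which share the Control libraries. Nor do the labels say whether replicates were separate cultures or animals, and p-values therefore measure only the spread between these libraries. The labels call the cells an adherent cell line, although the design describes primary cells from marrow.

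Per library, the estimated counts summed to between 56624220 and 69112134, and between 21556 and 22424 genes were above 0. All 9 macrophage markers had at least 1 FPKM in every group. Their summed CPM (counts scaled to the library total) was 17451 to 19429 in WGFT17, 18434 to 19699 in JHU083 and 17497 to 18851 in Control. Lyz2 made up most of the sum, such as 10025 of 12030 summed FPKM in WGFT17 replicate 1. In WGFT17 against Control, Mrc1 (-1.03 on the log2 scale), Itgam (-0.55) and Csf1r (-0.36) were called lower. Fcgr1 (0.23) and Mertk (0.24) were called higher, and the other macrophage markers did not pass. Of 8 fibroblast and stromal markers, 7 had at least 1 FPKM in WGFT17, 7 in JHU083 and 8 in Control, and they summed to 2275 to 2393 CPM in WGFT17, 8310 to 9496 in JHU083 and 12667 to 13530 in Control. Of 7 dendritic cell markers, 1 reached 1 FPKM in each group, and they summed to 41.3 to 47.4 CPM in WGFT17, 183 to 219 in JHU083 and 174 to 234 in Control. The 9 neutrophil markers summed to 0.978 to 1.88 CPM in WGFT17, 11.8 to 14.0 in JHU083 and 46.0 to 52.8 in Control. Of 8 heart muscle markers, 0 reached 1 FPKM in WGFT17, 7 in JHU083 and 7 in Control; they summed to 0.6 to 0.85 CPM in WGFT17, to 169, 0.96 and 278 in JHU083 replicates 1, 2 and 3, and to 223 to 264 in Control. Photoreceptor markers, 8 in all, summed to 0.768 to 1.16 CPM in WGFT17, to 0.965, 0.742 and 36.3 in JHU083 replicates 1, 2 and 3, and to 31.4 to 41.0 in Control. The 8 liver markers all had at least 1 FPKM in each group and summed to 167 to 419 CPM in WGFT17, 125 to 494 in JHU083 and 891 to 992 in Control, so they moved with the drug comparisons against Control. The 5 endothelial markers summed to 15.0 to 20.3 CPM in WGFT17, 42.2 to 49.8 in JHU083 and 36.7 to 43.7 in Control. Over all genes, JHU083 replicate 3 stood apart from replicates 1 and 2, with a chi-square per degree of freedom of 19.7 and 19.3, against 7.84 between those and 3.82 to 5.48 within WGFT17 and Control. Without it, the members called in JHU083 against Control and in WGFT17 against JHU083 were the same. In bulk RNA, fewer cells of a type and less RNA per cell cannot be told apart, and the part of these other cells in the results was not tested.

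WGFT17 cells had more mRNA of the guardians Bcl2, Bcl2l1 (BCL-XL) and Mcl1 and of the BH3-only genes Bcl2l11 (BIM) and Bid than Control cells, and were called lower in the effector Bax, a call that depended on the analysis. JHU083 cells had more Bcl2, Mcl1 and Bcl2l11 than Control cells and less Bax and Bak1. WGFT17 cells exceeded JHU083 cells in 5 members, namely Bcl2l1, Bax, Bak1, Bid and Bbc3 (PUMA). The calls of Mcl1 against Control, in WGFT17 and in JHU083, and of Bbc3 between the drugs also depended on the analysis. Pmaip1 (NOXA) and Bad passed the test in no comparison. All changes of the members were under 2-fold, and the largest was that of Bcl2, 1.53-fold higher in WGFT17 than in Control.

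**Figure D1:**
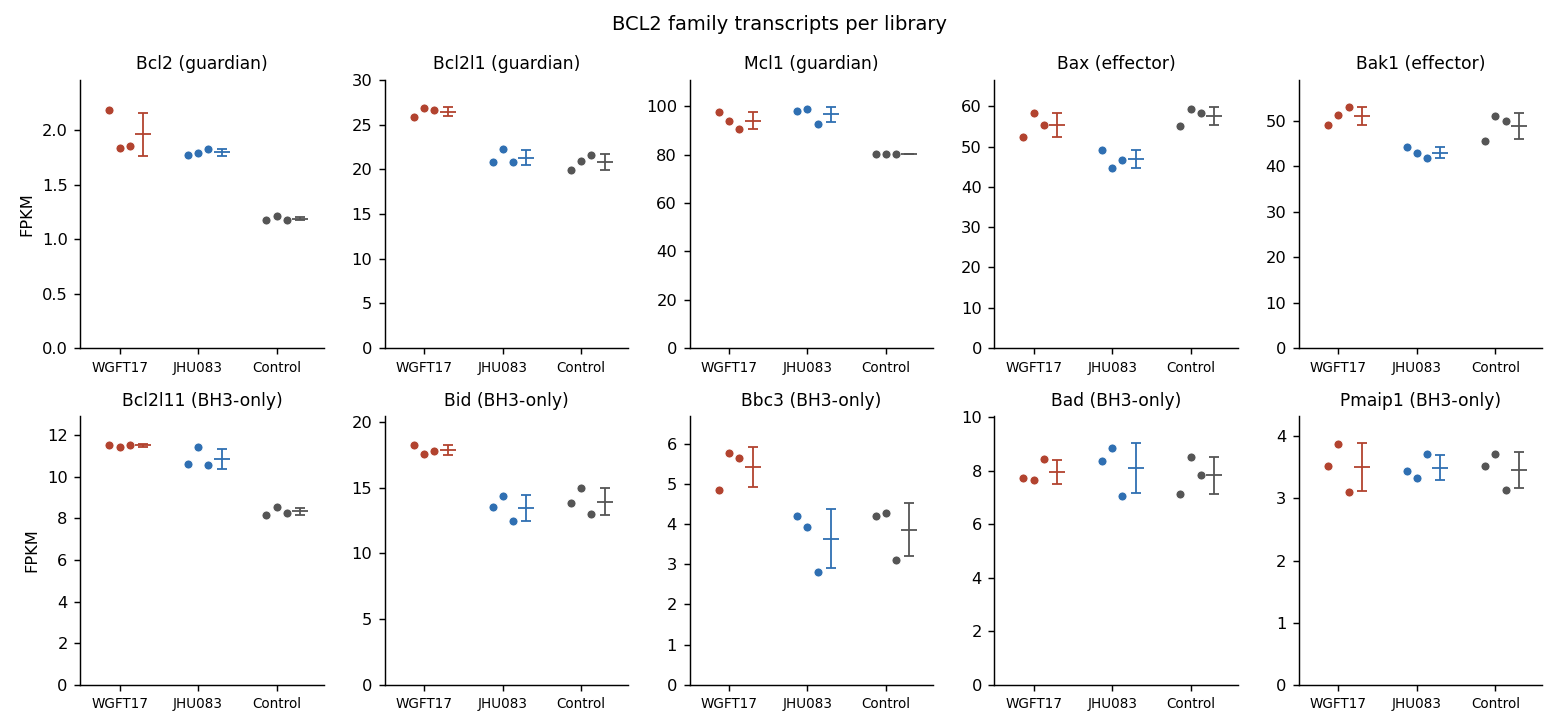
Levels of the 10 family members in each library. Each panel is a gene, the vertical axis is FPKM on a linear scale starting at 0, points are the 3 libraries of WGFT17, JHU083 and Control from left to right, and bars are means with SD. Bcl2 and Bcl2l11 lie above Control in all 6 drug libraries, while Bax and Bak1 are lowest in the JHU083 libraries.

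Levels differed widely between members. Averaged over the 9 libraries, Mcl1 was the most abundant at 90.3 FPKM, rank 417 of the 11798 tested genes, followed by Bax at 53.3 FPKM (rank 742) and Bak1 at 47.6 FPKM (rank 840). Bcl2l1 had 22.9 FPKM, Bid 15.1, Bcl2l11 10.2 and Bad 7.95. The lowest were Bbc3 at 4.31 FPKM, Pmaip1 at 3.49 and Bcl2 at 1.65, rank 10506. The order was the same in every library, except that Pmaip1 exceeded Bbc3 in JHU083 replicate 3 and Control replicate 3, and Bcl2l11 and Bad were nearly equal in Control replicate 2, at 8.54 and 8.52 FPKM. Mcl1 supplied 76.8 ± 0.81% of the summed guardian FPKM in WGFT17, 80.7 ± 0.505% in JHU083 and 78.5 ± 0.691% in Control (SD, n = 3 each), and Bcl2, the gene that names the family, between 1.15% and 1.74% in any library.

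Bcl2, on chromosome 1 at 106538178 to 106714274 (GRCm38, minus strand), encodes the founding guardian. It had 2.19, 1.84 and 1.86 FPKM in WGFT17, 1.77, 1.79 and 1.83 FPKM in JHU083, and 1.18, 1.21 and 1.18 FPKM in Control. All 6 drug libraries lay above all 3 Control libraries, and WGFT17 lay just above JHU083. Bcl2 was higher in WGFT17 than in Control by 0.61 on the log2 scale (SE 0.0889, edgeR adjusted p = 0.000146) and higher in JHU083 than in Control by 0.50 (SE 0.089, edgeR adjusted p = 0.0036). Between the drugs the difference was 0.11 with a 95% interval of -0.08 to 0.30 (edgeR adjusted p = 0.341), so it did not pass.

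Mcl1, on chromosome 3 at 95658788 to 95663176 (plus strand), encodes a guardian whose protein turns over fast. It had 97.6, 93.8 and 90.6 FPKM in WGFT17, 98.3, 98.8 and 92.9 FPKM in JHU083, and 80.4, 80.2 and 80.2 FPKM in Control. The drug groups overlapped each other and both lay wholly above Control, whose 3 libraries spanned less than 1 FPKM. The rise was small, 0.12 on the log2 scale in WGFT17 against Control (SE 0.0472, edgeR adjusted p = 0.0493) and 0.17 in JHU083 against Control (SE 0.0472, edgeR adjusted p = 0.0229). Both calls were fragile. In WGFT17 against Control the call held in 12 of 21 alternative analyses, and leaving out WGFT17 replicate 1 gave 0.09 (edgeR adjusted p = 0.179). It was also lost with upper-quartile scaling (edgeR adjusted p = 0.0672), and without WGFT17 replicate 2, JHU083 replicate 1 or 2, or any 1 Control library, with edgeR adjusted p between 0.0581 and 0.126. In JHU083 against Control it held in 16 of 22 and was lost in 6, with changes of 0.12 to 0.27 on the log2 scale over the 22. The 6 include leaving out JHU083 replicate 1 or 2 or any 1 Control library, with edgeR adjusted p between 0.0568 and 0.0815. Among the 22 is the fit with JHU083 replicate 3 as the only JHU083 library, with no spread of its own to test it by. WGFT17 minus JHU083 was -0.05, with a 95% interval of -0.16 to 0.05.

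Bcl2l1, on chromosome 2 at 152780668 to 152831728 (minus strand), encodes BCL-XL and its short, death-promoting splice form BCL-XS, which a gene-level value does not separate. Its levels were 25.9, 26.8 and 26.6 FPKM in WGFT17, 20.9, 22.3 and 20.8 FPKM in JHU083, and 19.9, 20.96 and 21.6 FPKM in Control. WGFT17 lay above both other groups, and JHU083 and Control overlapped. Bcl2l1 was higher in WGFT17 by 0.30 against JHU083 (SE 0.0506, edgeR adjusted p = 0.000587) and by 0.24 against Control (SE 0.0506, edgeR adjusted p = 0.00207). JHU083 minus Control was -0.06 on the log2 scale, with a 95% interval of -0.17 to 0.05 that leaves out a change of the size seen in WGFT17.

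Among the effectors, Bax, on chromosome 7 at 45461697 to 45466898 (minus strand), encodes the pore former that moves from the cytosol to mitochondria. Its levels were 52.4, 58.4 and 55.4 FPKM in WGFT17, 49.2, 44.7 and 46.6 FPKM in JHU083, and 55.0, 59.3 and 58.3 FPKM in Control. JHU083 lay below both other groups, which overlapped each other. The log2 change of Bax in JHU083 against Control was -0.39, a fold of 0.763 (SE 0.0576, edgeR adjusted p = 0.00161), and WGFT17 exceeded JHU083 by 0.23 (SE 0.0575, edgeR adjusted p = 0.00729). In WGFT17 against Control the count fit called a decrease of -0.16 (SE 0.0574, edgeR adjusted p = 0.0303). That call held in 11 of 21 alternative analyses. On the FPKM scale the difference was -0.05 (limma adjusted p = 0.432), and with each library's trend on transcript length removed it was -0.00 (edgeR adjusted p = 0.996). Leaving out WGFT17 replicate 1 or 3 or Control replicate 2 or 3 also ended it, with edgeR adjusted p between 0.0783 and 0.129. So did library totals alone as scaling (edgeR adjusted p = 0.0501) and no FPKM minimum (edgeR adjusted p = 0.113).

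Bak1, on chromosome 17 at 27019810 to 27029009 (minus strand), encodes BAK, the effector that resides on mitochondria and is restrained there by MCL1 and BCL-XL. It had 49.0, 51.2 and 53.01 FPKM in WGFT17, 44.3, 42.9 and 41.8 FPKM in JHU083, and 45.5, 51.0 and 50.0 FPKM in Control. As with Bax, the JHU083 libraries were the lowest 3 of the 9. Bak1 fell by 0.28 on the log2 scale in JHU083 against Control (SE 0.0541, edgeR adjusted p = 0.00561) and was higher in WGFT17 than in JHU083 by 0.23 (SE 0.0541, edgeR adjusted p = 0.0044). WGFT17 minus Control was -0.04, with a 95% interval of -0.16 to 0.07, and this difference turned positive on the FPKM scale.

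Bcl2l11, on chromosome 2 at 128126038 to 128162547 (plus strand), encodes BIM, a BH3-only protein that binds every guardian and is induced when growth factors are withdrawn. It had 11.5, 11.4 and 11.5 FPKM in WGFT17, 10.6, 11.4 and 10.6 FPKM in JHU083, and 8.18, 8.54 and 8.26 FPKM in Control. All drug libraries lay well above Control, and WGFT17 lay just above JHU083. Bcl2l11 rose by 0.36 on the log2 scale in WGFT17 against Control (SE 0.0471, edgeR adjusted p = 6.85e-05) and by 0.29 in JHU083 against Control (SE 0.0471, edgeR adjusted p = 0.00247). Between the drugs the difference was 0.07, with a 95% interval of -0.03 to 0.17.

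Bid, on chromosome 6 at 120891930 to 120916853 (minus strand), encodes the BH3-only protein that caspase-8 cuts to link death receptors to mitochondria. It had 18.3, 17.6 and 17.8 FPKM in WGFT17, 13.6, 14.4 and 12.4 FPKM in JHU083, and 13.8, 15.0 and 12.98 FPKM in Control. WGFT17 stood alone above the other groups. Bid was higher in WGFT17 by 0.39 against JHU083 (SE 0.0667, edgeR adjusted p = 0.000548) and by 0.25 against Control (SE 0.0666, edgeR adjusted p = 0.00747). JHU083 minus Control was -0.14, with a 95% interval of -0.29 to 0.00. With JHU083 replicate 3 as the only JHU083 library, a choice made after the data were seen, it was -0.25, with no spread of its own to test it by.

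Bbc3, on chromosome 7 at 16308393 to 16318205 (plus strand), encodes PUMA, a p53 target that is also induced by endoplasmic reticulum stress. It had 4.85, 5.76 and 5.65 FPKM in WGFT17, 4.19, 3.92 and 2.80 FPKM in JHU083, and 4.20, 4.28 and 3.11 FPKM in Control. WGFT17 lay above both other groups, and replicate 3 was the lowest library in both JHU083 and Control. Bbc3 was higher in WGFT17 than in JHU083 by 0.56 on the log2 scale (SE 0.1661, edgeR adjusted p = 0.0174), the largest difference of any member between the drugs. That call was lost without WGFT17 replicate 2 (edgeR adjusted p = 0.0601) or replicate 3 (edgeR adjusted p = 0.0528). Against Control, WGFT17 differed by 0.38 with a 95% interval of 0.01 to 0.74 and missed the threshold (edgeR adjusted p = 0.0711), although 7 of 20 alternative analyses called it. JHU083 minus Control was -0.18, with an interval of -0.55 to 0.19.

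Pmaip1 and Bad passed in none of the 3 comparisons. Pmaip1, on chromosome 18 at 66458533 to 66465565, encodes NOXA, which binds MCL1 and promotes its breakdown. It had 3.52, 3.88 and 3.11 FPKM in WGFT17, 3.44, 3.33 and 3.72 FPKM in JHU083, and 3.53, 3.71 and 3.14 FPKM in Control, with all groups overlapping. The 95% interval of its log2 change was -0.34 to 0.16 in WGFT17 against Control and -0.33 to 0.17 in JHU083 against Control. Bad, on chromosome 19 at 6941861 to 6951899, encodes a BH3-only protein that survival kinases keep phosphorylated and bound to 14-3-3 proteins. It had 7.73, 7.64 and 8.45 FPKM in WGFT17, 8.35, 8.86 and 7.05 FPKM in JHU083, and 7.12, 8.52 and 7.83 FPKM in Control. Its intervals were -0.31 to 0.13 in WGFT17 against Control and -0.26 to 0.17 in JHU083 against Control, so a change of the size seen for Bcl2 was outside them.

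Some members overlap other annotated genes. Bid lies across Bcl2l13, Bad across Gpr137 and Bak1 across Ggnbp1, each on the opposite strand, and Bcl2 has an antisense gene. Bax overlaps the protein-coding Gm45808 on its own strand. Bcl2 overlaps Mir3473f and Gm37053, and Bid overlaps Gm44260, also on the same strand. Strand cannot separate the reads of such same-strand pairs. The libraries keep the strand, but whether the counting used it is not given in the sources used here, so reads of these pairs may have been mixed.

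Promoters are shown for Bcl2, Mcl1 and Bcl2l11, which were called higher in each comparison with Control, and for Bax, the effector with the largest change in JHU083, to let a reader compare what lies before each start. The comparisons share the Control libraries, so their agreement is no separate evidence. Each line is the 250 bases before a RefSeq start site in GRCm38.p6, read 5′ to 3′ on the gene's strand, with capitals marking motif matches on either strand. The windows are chr1:106714291-106714540 for Bcl2 (minus strand), chr3:95658471-95658720 for Mcl1 (plus), chr2:128125788-128126037 for the first Bcl2l11 start (plus) and chr7:45466899-45467148 for Bax (minus).
Bcl2: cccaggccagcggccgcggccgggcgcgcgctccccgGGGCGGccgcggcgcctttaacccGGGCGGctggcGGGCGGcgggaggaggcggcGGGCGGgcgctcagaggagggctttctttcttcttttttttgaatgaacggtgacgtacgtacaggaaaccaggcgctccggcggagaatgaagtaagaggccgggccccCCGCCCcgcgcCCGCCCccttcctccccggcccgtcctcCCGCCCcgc
Mcl1: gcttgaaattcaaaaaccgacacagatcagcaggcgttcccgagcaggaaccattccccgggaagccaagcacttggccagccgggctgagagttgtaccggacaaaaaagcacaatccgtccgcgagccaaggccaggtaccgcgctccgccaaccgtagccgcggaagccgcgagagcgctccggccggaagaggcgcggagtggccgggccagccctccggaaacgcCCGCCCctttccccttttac
Bcl2l11: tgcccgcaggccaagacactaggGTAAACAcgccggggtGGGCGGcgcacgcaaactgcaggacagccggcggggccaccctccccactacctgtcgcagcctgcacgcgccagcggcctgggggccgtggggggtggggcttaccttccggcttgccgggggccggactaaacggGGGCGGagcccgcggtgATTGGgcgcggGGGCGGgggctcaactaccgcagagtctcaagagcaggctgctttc
Bax: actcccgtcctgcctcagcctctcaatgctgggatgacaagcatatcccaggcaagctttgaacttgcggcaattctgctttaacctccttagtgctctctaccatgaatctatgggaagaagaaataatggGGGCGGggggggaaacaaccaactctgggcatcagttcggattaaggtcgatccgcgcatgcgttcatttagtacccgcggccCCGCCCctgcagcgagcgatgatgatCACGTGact

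Motifs searched on both strands were the GC box GGGCGG, the CCAAT box CCAAT, the E-box CACGTG, the FOXO site GTAAACA, the STAT site TTCNNNGAA, the cyclic AMP response element TGACGTCA, the AP-1 site TGACTCA and the TATA box TATAAA. The Bcl2 window held 7 GC boxes and had 74.8% G and C bases. The Mcl1 window, at 64.4%, held 1 GC box. The Bcl2l11 window, at 72.0%, held 3 GC boxes, 1 CCAAT box and 1 FOXO site whose first base is at -227 from the start. The Bax window, at 54.0%, held 2 GC boxes and 1 E-box, with its first base at -9. All 4 thus shared the GC box, which 32.7% of 32851 promoters of the same length held, while CACGTG was in 6.02% and GTAAACA in 3.17%. Of the windows not printed, those of Bak1 and Bcl2l1 held no GC box, that of Bid held 3, and those of Bbc3 held 5, 1 and 7. A Bbc3 window also held a FOXO site, and another an E-box. A window of Bad, called in no comparison, held 3 GC boxes. The second Bcl2l11 start had no FOXO site. The median promoter had 52.4% G and C bases. A match is a string of letters and no measured binding site.

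**Figure D2:**
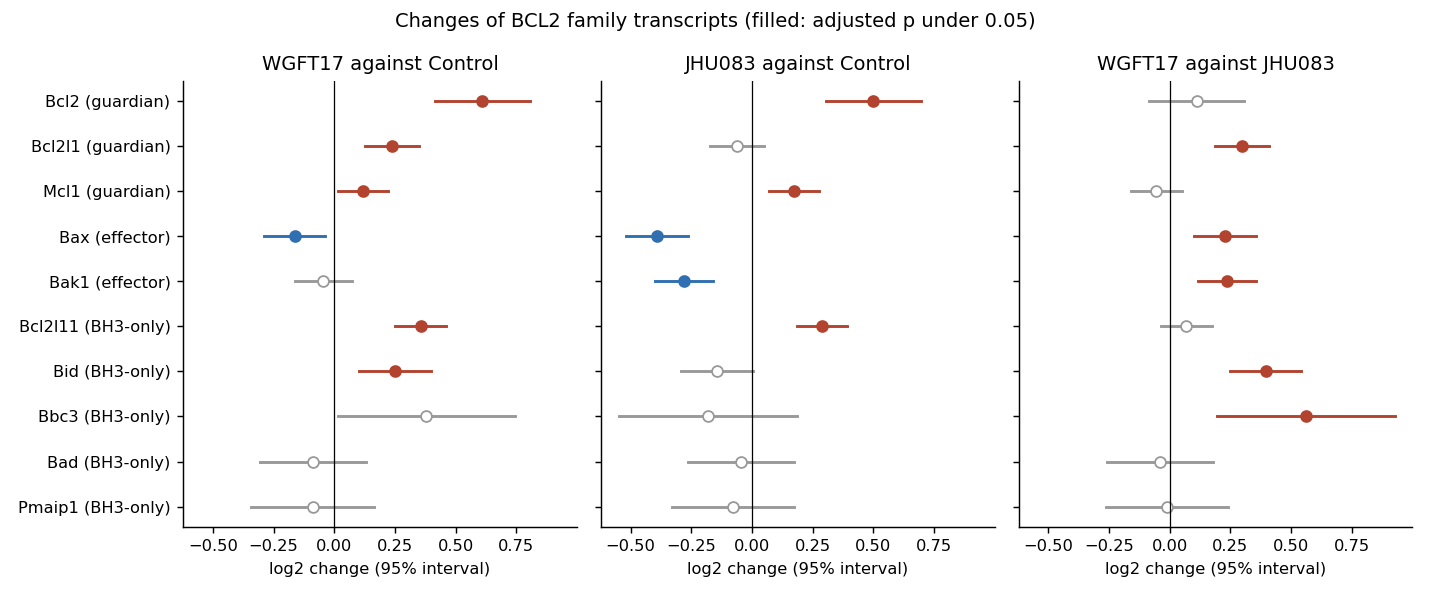
Change of each member in the 3 comparisons. The horizontal axis is the log2 change from the count fit, points are estimates, lines are 95% intervals, and filled points passed an adjusted p of 0.05. Bcl2, Mcl1 and Bcl2l11 lie right of 0 in both comparisons with Control, and the effectors Bax and Bak1 lie left of 0 in JHU083 against Control and right of 0 in WGFT17 against JHU083.

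Counted by role, WGFT17 against Control gave 3 of 3 guardians higher, 1 of 2 effectors lower and 2 of 5 BH3-only genes higher. In all, 6 of 10 members (60.0%) were called, against a background of 58.0% of all tested genes (28.0% higher and 30.0% lower), so the members were called about as often as tested genes in general. On the FPKM scale 60.9% of the genes called in this comparison were higher, against 48.3% in the count fit, and there Bax lost its call and Bbc3 gained one. In FPKM, 6 members lay wholly above Control and 0 below, where 73.2% of tested genes had no overlap, 45.0% above and 28.2% below. The median change of the members was 0.18 on the log2 scale, against 0.00 over all tested genes.

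JHU083 against Control gave 2 of 3 guardians higher, 2 of 2 effectors lower and 1 of 5 BH3-only genes higher. The 5 calls were 50.0% of the members, against a background of 24.0% of tested genes, with 11.5% higher and 12.5% lower. Without Control replicate 2 or 3, 1534 or 1568 of the 11798 tested genes were called, at most 13.3%, and 4 members were called in each case, Mcl1 having lost its call. With library totals alone as scaling, and on the FPKM scale, more of the genes called in this comparison were higher than lower (58.7% and 71.6% of them, against 47.7% in the count fit), and the same 5 members kept their calls and directions under these scalings. In FPKM, 3 members lay above Control and 2 below, where 43.7% of tested genes had no overlap, 31.3% above and 12.4% below. The median change of the members was -0.07, against 0.00 over all tested genes.

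WGFT17 against JHU083 gave 1 of 3 guardians, 2 of 2 effectors and 2 of 5 BH3-only genes, all higher in WGFT17. The 5 calls made up 50.0% of the members, close to the background of 44.7%. All of them went the same way, where 20.4% of tested genes were called higher and 24.4% lower. In FPKM, 7 members lay above JHU083 and 0 below, where 53.4% of tested genes had no overlap, 27.4% above and 25.9% below. The median of the members was 0.17 and that of all tested genes 0.01.

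Summed FPKM of a role within a library set the arms of the family against each other. Guardians summed to 122 ± 3.32 in WGFT17, 120 ± 3.82 in JHU083 and 102 ± 0.767 in Control, and effectors to 107 ± 4.42 in WGFT17, 89.8 ± 3.20 in JHU083 and 106 ± 5.18 in Control (SD, n = 3 each). BH3-only genes summed to 46.2 ± 0.304 FPKM in WGFT17, 39.5 ± 2.72 in JHU083 and 37.4 ± 2.41 in Control. Drug cells of either kind thus had larger guardian sums than Control, JHU083 had the smallest effector sum, and WGFT17 the largest BH3-only sum. On the log2(FPKM + 1) scale the median change of all tested genes against Control was itself 0.095 in WGFT17 and 0.079 in JHU083. The sums were not corrected for that shift. Most of each guardian sum was Mcl1, whose calls against Control depended on the analysis.

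Effectors to guardians was 0.807, 0.895 and 0.911 in WGFT17, 0.773, 0.713 and 0.765 in JHU083, and 0.990, 1.08 and 1.05 in Control. The 3 groups did not overlap, with JHU083 lowest and WGFT17 between it and Control. The ratio of Bax alone to Bcl2 was 28.5 ± 4.07 in WGFT17, 26.1 ± 1.51 in JHU083 and 48.3 ± 1.51 in Control. Here the drug groups overlapped, and both lay below Control. BH3-only genes to guardians was 0.378 ± 0.0127 in WGFT17, 0.330 ± 0.0124 in JHU083 and 0.366 ± 0.0244 in Control, so the WGFT17 libraries overlapped with Control and JHU083 lay below both.

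Bcl2l11 to Bcl2l1 was 0.435 ± 0.00992 in WGFT17, 0.509 ± 0.00223 in JHU083 and 0.400 ± 0.0158 in Control, with no overlap. Balances inside a role also differed. Mcl1 to Bcl2l1 was 3.56 ± 0.192 in WGFT17, 4.54 ± 0.152 in JHU083 and 3.86 ± 0.168 in Control, and the JHU083 libraries were the 3 highest. Bid to Bcl2l11 was 1.55 ± 0.0250 in WGFT17, 1.24 ± 0.0548 in JHU083 and 1.67 ± 0.0936 in Control, and the JHU083 libraries were the 3 lowest. Bax to Bak1 varied less, at 1.09 ± 0.0493 in WGFT17, 1.09 ± 0.0402 in JHU083 and 1.18 ± 0.0266 in Control, and was highest in the Control libraries. These ratios are of mRNA levels, with no test, and weigh each role by its most abundant gene. They were not corrected for the trend with transcript length given below. The effectors have shorter transcripts than the guardians, and the part of that trend in the ratios was not tested.

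**Figure D3:**
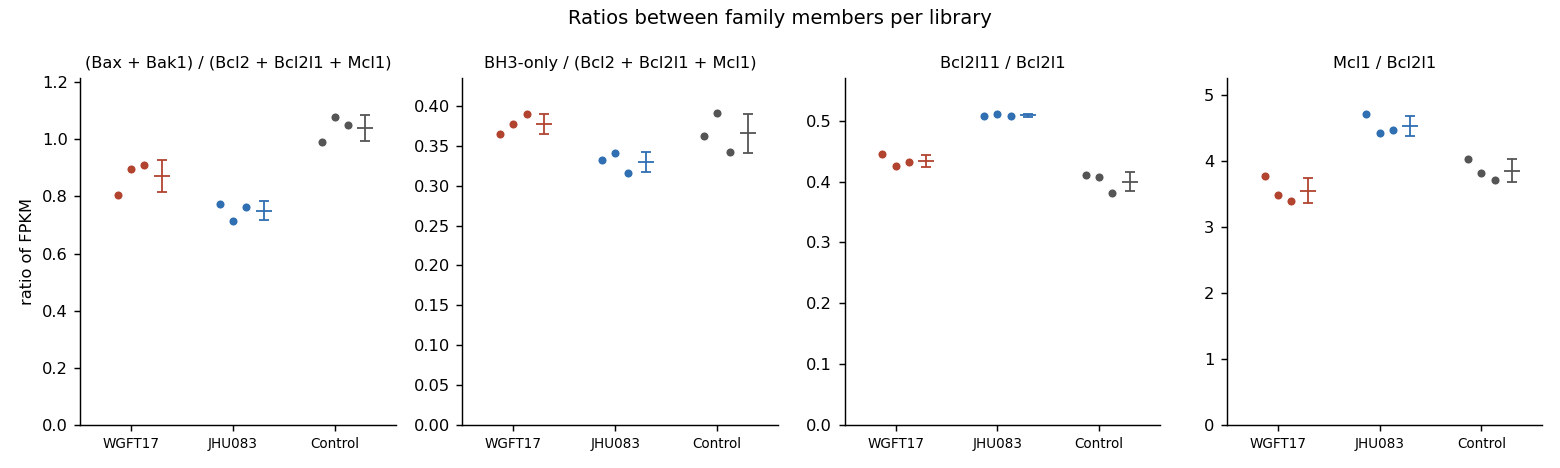
Ratios between members or roles in each library. Each panel is a ratio of FPKM values on an axis starting at 0, with 3 points for WGFT17, JHU083 and Control from left to right and bars for mean and SD. The effector to guardian ratio is highest in Control and lowest in JHU083, and the ratios of Mcl1 and of Bcl2l11 to Bcl2l1 are highest in JHU083.

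Transcript length moved with the changes against Control. Over the 11798 tested genes, Spearman's rho between length, read from the ratio of counts to FPKM, and log2 change was 0.37 in JHU083 against Control and 0.19 in WGFT17 against Control, but -0.00 in WGFT17 against JHU083. Genes share the same libraries and are no independent replicates. Bcl2 and Bcl2l11, which rose, have long transcripts, at the percentiles 89.0 and 84.1 of length among tested genes. The effectors are short, with Bax at 14.6 and Bak1 at 25.7. With the trend removed, JHU083 minus Control was 0.40 for Bcl2, 0.21 for Bcl2l11, 0.20 for Mcl1, -0.25 for Bax and -0.20 for Bak1, and all 5 still passed. In WGFT17 against Control, removing the trend took Bax to -0.00 (edgeR adjusted p = 0.996), which ended its call. Bak1 turned slightly positive there and did not pass.

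Genes most like a member were those with the highest Pearson correlation of log2 levels over the 9 libraries, given as a description. Bcl2 was followed most closely by Krit1 (r = 0.990) and Tasor (r = 0.989), and Bcl2l11 by Rbbp5 (r = 0.991) and Wdr11 (r = 0.989). The genes nearest to Mcl1 were Rab3gap1 (r = 0.982) and Pura (r = 0.974). Those nearest to Bax were the ribosomal protein genes Rps10 (r = 0.971) and Rplp2 (r = 0.967). Rps10 averaged 84.3 FPKM in WGFT17, 73.2 in JHU083 and 88.2 in Control, the same order as Bax. The 9 libraries fall into 3 groups, so such a correlation mostly reflects the group means.

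**Figure D4:**
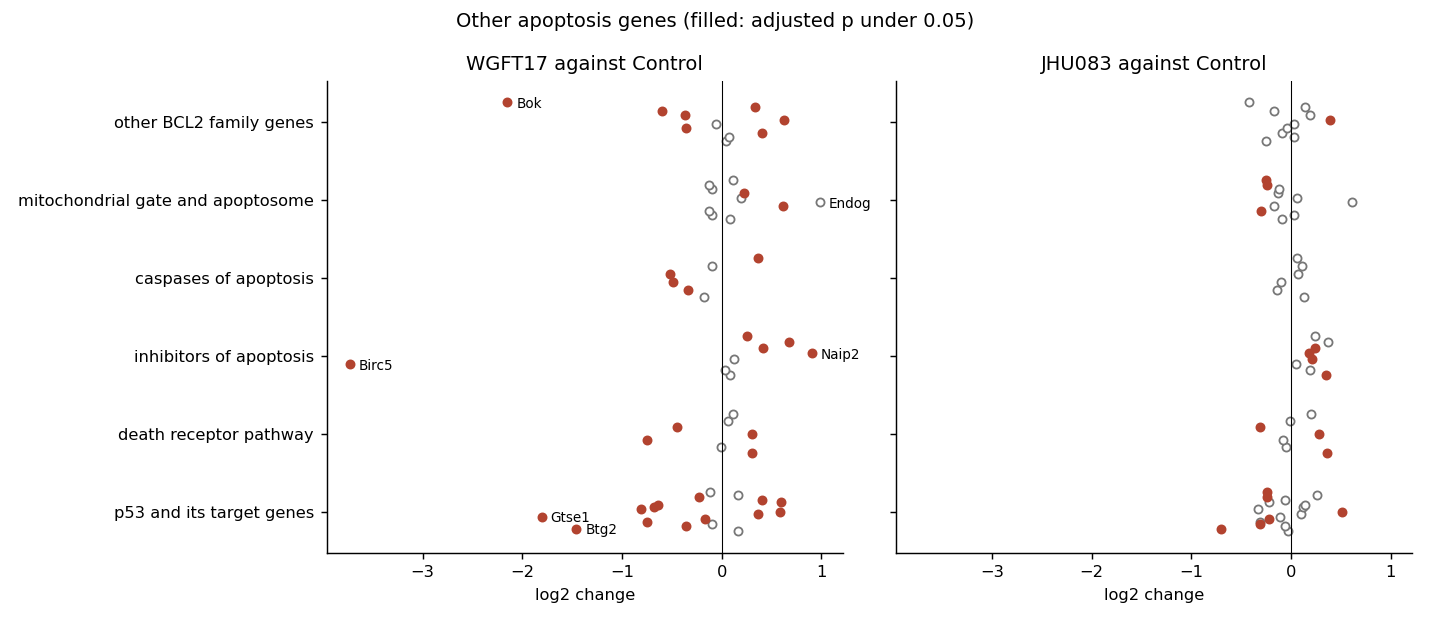
Change of genes around the BCL2 family. Each row is a gene list and each point a tested gene at its log2 change, in WGFT17 against Control (left) and JHU083 against Control (right), filled where it passed an adjusted p of 0.05. Birc5 and Bok lie far to the left in WGFT17 against Control, and no gene of the lists is that far from 0 in JHU083 against Control.

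Of 15 further family genes, 10 were tested. In WGFT17 against Control 3 were higher and 4 lower (70.0% called, against 58.0% of all tested genes), in JHU083 against Control 1 was higher and 0 lower (against 24.0% of all tested genes), and in WGFT17 against JHU083 2 were higher and 3 lower (50.0% against 44.7%). Bok, a BAX-like effector that guardians do not restrain, had 1.28, 2.01 and 1.62 FPKM in WGFT17, 5.70, 5.75 and 4.71 FPKM in JHU083, and 6.70, 6.73 and 6.84 FPKM in Control. On the log2 scale its change was -2.15 in WGFT17 against Control (edgeR adjusted p = 6.29e-07) and -1.73 against JHU083 (edgeR adjusted p = 4.41e-06), the largest among the tested genes of the family. The stromal marker sums given above ran in the same order, and their part in this result was not tested. Bcl2l2, the guardian BCL-W, averaged 8.28 ± 0.546 FPKM in WGFT17, 6.99 ± 0.667 in JHU083 and 4.98 ± 0.604 in Control. It was higher by 0.62 in WGFT17 and by 0.40 in JHU083 against Control on the log2 scale (edgeR adjusted p = 0.000251 for WGFT17 and 0.0153 for JHU083). Bcl2a1b, the most abundant A1 guardian copy, averaged 99.5 ± 7.22 FPKM in WGFT17, 95.8 ± 8.92 in JHU083 and 87.8 ± 3.42 in Control, with overlapping groups. Bcl2a1b and the copy Bcl2a1a passed in no comparison. The copy Bcl2a1d averaged 8.58 ± 0.745 FPKM in WGFT17, 6.02 ± 1.26 in JHU083 and 6.00 ± 0.287 in Control. It was higher in WGFT17 by 0.41 against Control (edgeR adjusted p = 0.0493) and by 0.50 against JHU083 (edgeR adjusted p = 0.0271). The A1 copies are nearly identical, so how reads were split among them is uncertain.

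Downstream of the pore, 10 genes of the mitochondrial gate and apoptosome were tested. WGFT17 against Control had 2 higher and 0 lower (20.0% called, against 58.0% of all tested genes), JHU083 against Control 0 higher and 3 lower (30.0% against 24.0%), and WGFT17 against JHU083 5 higher and 0 lower (50.0% against 44.7%). Diablo, whose product blocks inhibitors of apoptosis once released, had 5.92 ± 0.133 FPKM in WGFT17, 3.40 ± 0.471 in JHU083 and 3.58 ± 0.371 in Control, and was higher in WGFT17 than in Control by 0.61 on the log2 scale (edgeR adjusted p = 0.000567). Cycs, which encodes cytochrome c, fell in JHU083 against Control by 0.30 on the log2 scale (edgeR adjusted p = 0.00666), at 16.8 ± 1.03 FPKM in JHU083 against 19.4 ± 0.945 FPKM in Control. Endog, a mitochondrial nuclease, had 3.57, 4.08 and 4.29 FPKM in WGFT17, 4.15, 3.92 and 1.04 FPKM in JHU083, and 1.19, 2.45 and 1.95 FPKM in Control, and passed in no comparison. JHU083 replicates 1 and 2 lay within the WGFT17 range or close to it, and JHU083 replicate 3 lay below every other library.

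Of the 6 caspases of apoptosis, WGFT17 against Control had 1 higher and 3 lower (66.7% called, against 58.0% of all tested genes). WGFT17 against JHU083 also had 1 higher and 3 lower (66.7% against 44.7%). JHU083 against Control had 0 called by edgeR (against 24.0% of all tested genes), as by DESeq2 and limma. It also had 0 at an unadjusted p under 0.05. So short a list cannot show whether 0 differs from that share. Casp9, the initiator in the apoptosome, averaged 11.4 ± 0.645 FPKM in WGFT17, 9.12 ± 0.811 in JHU083 and 8.21 ± 0.404 in Control, and was higher in WGFT17 than in Control by 0.36 on the log2 scale (edgeR adjusted p = 0.00152). Among 8 tested inhibitors of apoptosis, 4 were higher and 1 lower in WGFT17 against Control (62.5% called, against 58.0%) and 4 higher and 0 lower in JHU083 against Control (50.0% against 24.0%). Birc5 (survivin), which also acts in cell division, had 0.643 ± 0.163 FPKM in WGFT17, 8.78 ± 0.702 in JHU083 and 7.95 ± 0.446 in Control, a log2 change of -3.73 in WGFT17 against Control (edgeR adjusted p = 4.95e-09).

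Regulators of BH3-only genes other than p53 numbered 15, of which WGFT17 against Control had 6 higher and 1 lower (46.7% called, against 58.0% of all tested genes), JHU083 against Control 0 higher and 2 lower (13.3% against 24.0%), and WGFT17 against JHU083 6 higher and 1 lower (46.7% against 44.7%). Ddit3, which encodes the stress factor CHOP, an inducer of BIM and PUMA, had 78.6, 76.9 and 81.1 FPKM in WGFT17, 12.5, 11.5 and 11.7 FPKM in JHU083, and 9.70, 10.9 and 9.03 FPKM in Control. It was higher in WGFT17 than in JHU083 by 2.71 (edgeR adjusted p = 2.65e-10) and than in Control by 2.89 on the log2 scale (edgeR adjusted p = 1.42e-10). Its partner in that response, Atf4, averaged 137 ± 1.55 FPKM in WGFT17, 65.5 ± 0.763 in JHU083 and 72.3 ± 3.54 in Control. Trib3 averaged 62.1 ± 1.58 FPKM in WGFT17, 5.89 ± 0.831 in JHU083 and 6.73 ± 1.05 in Control.

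Of 17 tested genes of p53 and its targets, 4 were higher and 9 lower in WGFT17 against Control (76.5% called, against 58.0% of all tested genes), 1 higher and 6 lower in JHU083 against Control (41.2% against 24.0%), and 4 higher and 7 lower in WGFT17 against JHU083 (64.7% against 44.7%). Bax, Bbc3 and Pmaip1 are p53 targets too, and were not counted here. Btg2, a p53 target that slows division, averaged 6.37 ± 0.742 FPKM in WGFT17, 10.6 ± 0.727 in JHU083 and 16.2 ± 0.445 in Control. Cdkn1a, which encodes the cell cycle inhibitor p21, averaged 64.9 ± 1.73 FPKM in WGFT17, 55.7 ± 2.70 in JHU083 and 64.5 ± 3.08 in Control, and fell by 0.31 on the log2 scale in JHU083 against Control (edgeR adjusted p = 0.00291). Of 7 tested death receptor genes, which act upstream of Bid, 2 were higher and 2 lower in WGFT17 against Control (57.1% called, against 58.0%), and 2 higher and 1 lower in JHU083 against Control (42.9% against 24.0%). Fas averaged 2.28 ± 0.323 FPKM in WGFT17, 3.57 ± 0.519 in JHU083 and 3.55 ± 0.308 in Control. Cflar, which restrains caspase-8, averaged 5.93 ± 0.167 FPKM in WGFT17, 6.10 ± 0.632 in JHU083 and 4.44 ± 0.239 in Control.

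The 5 genes that set the stability of the MCL1 protein gave 2 higher and 1 lower in WGFT17 against Control (60.0% called, against 58.0%), and 1 higher and 0 lower in JHU083 against Control (20.0% against 24.0%). Usp9x, a deubiquitinase that protects MCL1, averaged 13.01 ± 0.282 FPKM in WGFT17, 12.1 ± 0.904 in JHU083 and 9.20 ± 0.960 in Control. Fbxw7, part of a ligase that marks MCL1 for breakdown, averaged 2.62 ± 0.145 FPKM in WGFT17, 2.097 ± 0.187 in JHU083 and 1.62 ± 0.0764 in Control. MCL1 protein itself was not measured.

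**Figure D5:**
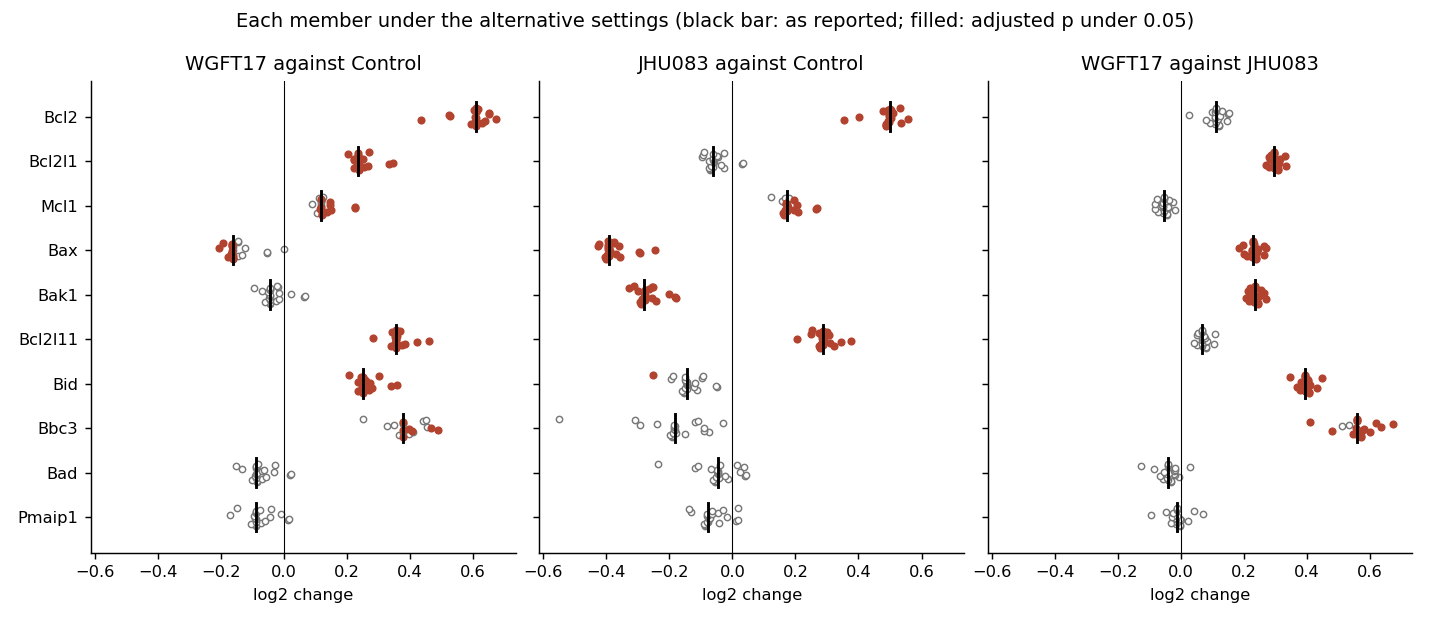
Change of each member under every alternative analysis. The horizontal axis is the log2 change, each point is an alternative (another scaling, filter, model or a left-out library), filled where it passed an adjusted p of 0.05, and the black bar is the value reported above. Points of the called members stay on the side of 0 of their bar, with Bax in WGFT17 against Control reaching -0.00.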

How the data were processed

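Poly(A) RNA of 9 libraries was sequenced as read pairs of 150 bases, per the labels' protocols. Tools listed in the submitters' processing notes, with no role stated, are StringTie 2.1.6, HISAT2 2.2.1, cutadapt 1.9, edgeR and DESeq2, and the build listed is mm9. The deposited table gives, per the file headers, an expected count (an estimated count, whole as deposited) and an FPKM value per gene and library. Its coordinates matched GRCm38 (GENCODE M21) for 25194 of 28926 identifiers (87.1%), all 10 members included, so positions are in GRCm38. The estimated counts look derived from coverage, with about 4 counts per read pair, so count fits may overstate precision at low levels; counts divided by 4 were an alternative.

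Genes with a mean of at least 1 FPKM were fitted with edgeR 4.0.16 (quasi-likelihood, TMM scaling, all 9 libraries, R 4.3.3). Benjamini-Hochberg adjustment ran over 11798 genes, with a threshold of 0.05. The common dispersion was 0.0149. The method was tested on simulated counts in which 11598 of 11798 genes were left unchanged. Of genes changed 1.25-fold, 26% were called in WGFT17 against JHU083, 28% in WGFT17 against Control and 20% in JHU083 against Control. Of those changed 2-fold, 90%, 96% and 86% were called. More genes were called in the data than were changed in the simulation, so these shares need not hold for the data. Alternatives used DESeq2 1.42.0, limma 3.58.1 on log2 FPKM, other scalings and filters, a length correction, the replicate number as a block, and each library left out. JHU083 replicate 3 alone was an alternative added after the data were seen. Means and SDs are of deposited FPKM.

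The members and gene lists were chosen with earlier results of these data known. Named list genes are the up to 3 called genes with the smallest adjusted p per list and comparison, and family genes; Endog was named after its values were seen. The result of 1 gene that this rule names is withheld and not reported here. Genes most like a member were found from log2(FPKM + 1). Promoters came from RefSeq, with 9 of 10 members used.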

Additional observations from a re-analysis of the deposited data

How the results depend on the processing

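Of 16 calls among the members over the 3 comparisons, 12 held in every alternative analysis that gave a value, and no called member changed sign. The other 4 are Mcl1 and Bax in WGFT17 against Control, Mcl1 in JHU083 against Control and Bbc3 in WGFT17 against JHU083. Members called ranged over 4 to 7 in WGFT17 against Control, 4 to 5 in JHU083 against Control and 4 to 5 in WGFT17 against JHU083. The minimum of 5 FPKM gave no value for Bcl2, Bbc3 and Pmaip1. It left 3305 genes called in WGFT17 against JHU083 and 4151 in WGFT17 against Control, since fewer genes were tested. Leaving out 1 library gave 1534 to 3731 called genes in JHU083 against Control, lowest without Control replicate 2 (1534) and replicate 3 (1568), and the cause was not tested. On the FPKM scale with a pseudocount of 0.1, the median change of all tested genes in WGFT17 against Control moved by 0.11 on the log2 scale, so changes there are relative to that shift.

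Members that were not called changed sign as follows, and the cause was not tested. In WGFT17 against JHU083, Pmaip1 was 0.0228 with no FPKM minimum and -0.0946 to 0.0715 with 1 library left out, and Bad -0.1253 to 0.0299. In WGFT17 against Control on the FPKM scale (pseudocounts 1 and 0.1), Bak1 was 0.0643 and 0.0655, Pmaip1 0.0125 and 0.0152, and Bad 0.0208 and 0.0234. Bak1 was 0.0226 with the length trend removed. In JHU083 against Control on the FPKM scale, Bcl2l1 was 0.0321 and 0.0335, Pmaip1 0.0129 and 0.0166, and Bad 0.0402 and 0.0445. With the length trend removed Bad was 0.0235, with 1 library left out -0.1178 to 0.0373, and with JHU083 replicate 3 alone Pmaip1 was 0.0176.

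Libraries with the same replicate number did not deviate together more than others. Their 9 correlations were -0.12 to 0.05, and those between different numbers were -0.13 to 0.13. With 3 libraries a group, such values cannot show whether the numbers pair the samples. With the number as a block, 4907 genes were called in WGFT17 against JHU083, 6530 in WGFT17 against Control and 2330 in JHU083 against Control, and 5 members in each. In WGFT17 against Control the block ended the calls of Mcl1 (edgeR adjusted p = 0.0795) and Bax (edgeR adjusted p = 0.0553) and called Bbc3 (edgeR adjusted p = 0.0496), and it changed no other call of a member.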
